A study of Mus musculus with 8 samples.

Results

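Late-switching regions were stretches of hepatocyte chromatin whose coverage by the 50000 highest-ranked peaks changed between 48 and 72 h after partial hepatectomy (PHx). They were covered in every library of 72 and 96 h and in no library of 0 and 48 h, or the reverse. To find them, each of the 8 deposited peak lists was reduced to its 50000 distinct intervals with the highest −log10 p on chromosomes 1 to 19 and X, and these intervals were merged across lists where they overlapped by at least 1 bp. Of the 73720 merged regions, 107 were present in all 4 late libraries and in no early one (late-gained, 0.145% of all regions). The reverse pattern (late-lost) was found in 103 regions (0.140%). Together 210 regions switched between 48 and 72 h by this rule. The regions were chosen by the −log10 p rank of their intervals in these 8 lists, so that their levels there are given below as a description without a test.

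Hepatocytes were isolated by collagenase perfusion from C57BL/6 mice (C57BL/6J in the study's methods) aged 10 to 12 weeks on a normal diet, either from undamaged liver (0 h) or at 48, 72 or 96 h after PHx, an operation that takes away a large share of the liver lobes. Their nuclei were profiled by bulk ATAC-Seq, an assay that maps accessible DNA by the sites where Tn5 transposase can insert adapters, giving 2 libraries per time point and 8 in all. The labels do not state whether the replicates came from separate mice, although the study describes biological replicates. In bulk nuclei, fewer cells carrying an open region and a less open region in every cell cannot be told apart.

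After PHx the remaining hepatocytes leave quiescence, pass through DNA synthesis and mitosis and then return to their resting, metabolic state as liver mass recovers. Open chromatin marks promoters, which lie at gene starts, and enhancers and insulators, which lie away from them. Distal enhancers of hepatocytes are bound by factors such as HNF4A, FOXA, C/EBP, HNF1 and ONECUT, whereas insulators are typically bound by CTCF, a zinc finger protein that delimits chromatin loops.

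The late-gained windows shown here are the 200 bp around the summit of the strongest peak of 3 regions with high ranks, followed by regions with a match to AP-1, HNF4 or FOXA. Windows that touched an annotated untranslated region were passed over. Each is named by its nearest protein-coding gene and read from the plus strand of GRCm38.p6 in the 5′ to 3′ direction, and capitals mark matches to any of the 25 motifs searched. In the Jag1 window no motif matched. The Nkx2-3 window held a CTCF match and an E-box, and the Gbe1 window an E-box.
Jag1, chr2:137165771-137165970: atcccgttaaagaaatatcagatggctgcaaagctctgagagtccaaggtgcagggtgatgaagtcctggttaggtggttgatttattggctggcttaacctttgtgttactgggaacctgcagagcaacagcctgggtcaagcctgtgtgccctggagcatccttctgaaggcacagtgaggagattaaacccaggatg
Nkx2-3, chr19:43624047-43624246: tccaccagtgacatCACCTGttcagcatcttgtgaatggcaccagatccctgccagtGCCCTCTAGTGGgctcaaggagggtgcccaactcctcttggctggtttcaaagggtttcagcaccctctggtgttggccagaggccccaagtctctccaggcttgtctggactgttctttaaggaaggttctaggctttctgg
Gbe1, chr16:70439346-70439545: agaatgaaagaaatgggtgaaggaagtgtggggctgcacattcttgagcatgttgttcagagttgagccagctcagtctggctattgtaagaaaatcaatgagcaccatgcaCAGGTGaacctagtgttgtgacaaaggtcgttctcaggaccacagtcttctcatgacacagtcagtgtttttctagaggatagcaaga
Crbn, chr6:106804958-106805157: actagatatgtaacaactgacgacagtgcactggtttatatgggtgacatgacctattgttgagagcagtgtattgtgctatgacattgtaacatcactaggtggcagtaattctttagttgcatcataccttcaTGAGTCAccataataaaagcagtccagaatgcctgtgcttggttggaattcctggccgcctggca
Amer2, chr14:60495565-60495764: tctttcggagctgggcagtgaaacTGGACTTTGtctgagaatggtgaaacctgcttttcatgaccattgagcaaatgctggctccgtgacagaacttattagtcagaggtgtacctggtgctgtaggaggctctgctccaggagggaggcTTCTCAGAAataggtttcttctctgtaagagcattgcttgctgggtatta
Trmt9b, chr8:36452421-36452620: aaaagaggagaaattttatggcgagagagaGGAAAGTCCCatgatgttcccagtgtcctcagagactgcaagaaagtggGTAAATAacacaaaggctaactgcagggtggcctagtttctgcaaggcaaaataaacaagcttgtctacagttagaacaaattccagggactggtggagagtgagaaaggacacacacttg

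The late-lost windows shown here likewise begin with regions of high rank and end with regions that matched CTCF, AP-1, HNF4 and FOXA. The strongest of them, near Zfp959, held a pair of overlapping matches to the palindromic HNF1 motif, a motif found in 0.244% of all regions. The Btn2a2 window contained an annotated tRNA-Trp gene in its first part, and the Apob window held a FOXA and a STAT match.
Zfp959, chr17:55903802-55904001: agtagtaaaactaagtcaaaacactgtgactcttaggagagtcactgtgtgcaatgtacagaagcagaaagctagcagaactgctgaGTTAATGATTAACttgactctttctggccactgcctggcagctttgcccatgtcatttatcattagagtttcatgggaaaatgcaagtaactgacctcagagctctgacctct
Hpgd, chr8:56287461-56287660: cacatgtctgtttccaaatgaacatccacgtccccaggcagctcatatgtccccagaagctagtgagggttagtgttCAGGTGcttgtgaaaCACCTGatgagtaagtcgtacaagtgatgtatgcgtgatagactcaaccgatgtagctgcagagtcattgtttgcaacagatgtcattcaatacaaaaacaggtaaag
Btn2a2, chr13:23506498-23506697: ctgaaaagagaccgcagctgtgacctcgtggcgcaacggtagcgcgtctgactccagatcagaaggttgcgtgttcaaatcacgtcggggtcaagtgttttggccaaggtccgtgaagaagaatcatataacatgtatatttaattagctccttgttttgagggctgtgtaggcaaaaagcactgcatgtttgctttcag
Cat, chr2:103511762-103511961: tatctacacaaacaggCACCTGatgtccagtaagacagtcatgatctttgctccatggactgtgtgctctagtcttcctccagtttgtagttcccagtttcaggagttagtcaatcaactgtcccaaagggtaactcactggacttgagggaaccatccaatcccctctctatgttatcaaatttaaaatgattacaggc
Irf2bpl, chr12:86905292-86905491: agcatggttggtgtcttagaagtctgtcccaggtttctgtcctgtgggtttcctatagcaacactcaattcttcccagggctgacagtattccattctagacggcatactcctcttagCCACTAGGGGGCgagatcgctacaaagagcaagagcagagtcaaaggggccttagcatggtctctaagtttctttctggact
Ifnk, chr4:35126895-35127094: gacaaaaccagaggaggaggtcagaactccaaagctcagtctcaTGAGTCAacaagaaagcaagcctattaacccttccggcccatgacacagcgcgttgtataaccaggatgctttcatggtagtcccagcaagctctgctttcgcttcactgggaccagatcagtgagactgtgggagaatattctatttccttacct
Atp13a3, chr16:30397690-30397889: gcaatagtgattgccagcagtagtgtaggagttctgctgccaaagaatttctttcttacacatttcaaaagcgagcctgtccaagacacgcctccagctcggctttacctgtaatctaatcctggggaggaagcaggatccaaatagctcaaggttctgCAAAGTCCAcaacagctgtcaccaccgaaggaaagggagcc
Apob, chr12:8090056-8090255: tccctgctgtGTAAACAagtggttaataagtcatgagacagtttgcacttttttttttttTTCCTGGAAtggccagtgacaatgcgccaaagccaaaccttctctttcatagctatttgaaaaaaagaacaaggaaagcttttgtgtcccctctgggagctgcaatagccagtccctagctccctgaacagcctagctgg

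The selected regions were moderate peaks on both sides of the switch. Fold enrichment over local background, as given by the peak caller, had a median over the late-gained regions of 5.41 and 4.22 (0 h), 3.91 and 4.09 (48 h), 7.73 and 7.53 (72 h), and 7.95 and 6.54 (96 h), for replicates 1 and 2 over 107 regions. For the 103 late-lost regions the medians were 7.11 and 6.76 (0 h), 5.33 and 5.59 (48 h), 4.75 and 4.64 (72 h), and 4.90 and 4.0 (96 h). A region without any interval in a list entered these medians as 0. The late-gained medians thus lay apart on the 2 sides, with every late median above every early one. The late-lost medians also lay apart, with every early median above every late one, but the order of 0 and 48 h changed with the scale. When each value was divided by the median of its library's 50000 kept intervals, a scaling chosen after the data had been seen, the late-lost medians were 0.761 and 0.760 (0 h), 0.795 and 0.775 (48 h), 0.531 and 0.535 (72 h), and 0.540 and 0.502 (96 h). The values of 0 h were then not above those of 48 h.

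**Figure D1:**
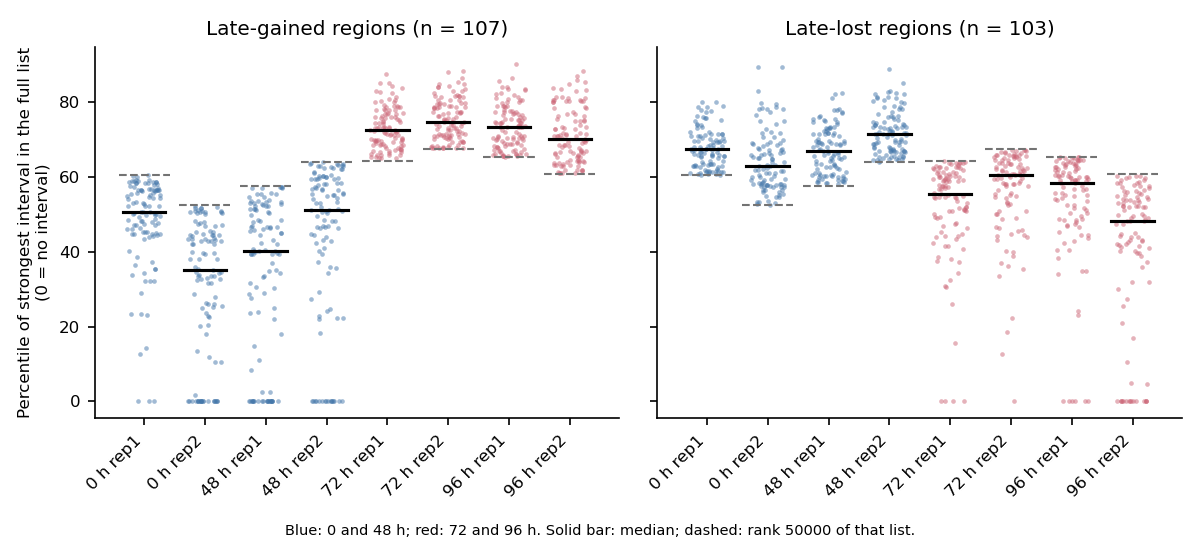
Each point is 1 late-switching region in 1 library, and the y axis gives the percentile of its strongest interval within the full peak list of that library (0 where the list held no interval). The solid bars are medians and the dashed bars mark rank 50000, which lay at percentiles from 52.5 to 67.6. Of the 107 late-gained regions, 3 to 22 had no interval in a given early list, while most late-lost regions remained in the late lists below the dashed bar.

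Absence from the strongest intervals was rarely absence from the list. No late-gained region lacked an interval in all 4 full early lists, 59 had one in all 4, 35 in 3, 12 in 2 and 1 in 1. Among the late-lost regions 83 had an interval in all 4 full late lists, 16 in 3, 2 in 2 and 2 in 1. The full lists of 0 h replicate 2 and 48 h replicate 1 lacked 21 and 22 of the late-gained regions, and that of 96 h replicate 2 lacked 15 of the late-lost. Over the 59 late-gained regions with an interval in every list, the mean fold enrichment of the late libraries was 1.68 times that of the early libraries (median, range 1.28 to 2.41). Over the corresponding 83 late-lost regions the early mean was 1.35 times the late mean (median, range 1.07 to 2.11).

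As deposited, fold enrichment separated the groups of libraries in more of the gained than of the lost regions. In 87 of 107 late-gained regions (81.3%) all 4 late libraries had a higher fold enrichment than all 4 early libraries, a pattern present in 2.78% of all regions. In 34 of 103 late-lost regions (33.0%) all 4 early libraries were above all 4 late ones, against 0.391% of all regions. The rule used the same contrast, so these shares are descriptive. On the scale relative to the library median the counts became 96 late-gained (89.7%, background 1.75%) and 81 late-lost regions (78.6%, background 1.75%). The within-list percentile gave a different picture, with 105 late-gained regions separated (98.1%, background 4.38%) and 2 overlapping, but 44 late-lost regions separated (42.7%, background 0.477%) and 59 overlapping. List length moved with this measure: rank 50000 lay at percentiles of 52.5 to 64.1 in the early lists and 60.8 to 67.6 in the late lists. Its part in the result was not tested.

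The interval nearest to the limit fell in every library. The late-gained regions had their weakest late interval in each of the 4 late libraries in 24 to 28 cases, and their strongest early interval in each of the early libraries in 22 to 34 cases. For the late-lost regions the corresponding counts were 19 to 33 and 21 to 35. Fold enrichment was also coarse at this strength. Its most frequent values were equally spaced in every list, by 0.285 and 0.422 (0 h), 0.355 and 0.373 (48 h), 0.286 and 0.301 (72 h), and 0.318 and 0.409 (96 h), for replicates 1 and 2. Among late-gained regions with an interval in the list, the median stood at 19 and 11 such steps (0 h) and 11 and 11.2 (48 h). In the late lists it stood at 27 and 25 (72 h) and 25 and 16 (96 h). Steps differ in size between lists, so their numbers do not compare levels. Differences of 1 or a few steps between libraries are therefore at the resolution of the values.

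Within each side, the time points were also compared by percentile. Both 48 h libraries were above both 0 h libraries in 18 late-gained (16.8%) and 35 late-lost regions (34.0%), against 22.5% of all regions. Both were below in 13 late-gained (12.1%) and 11 late-lost regions (10.7%), against 18.1%. Both 96 h libraries were above both 72 h libraries in 10 late-gained (9.35%) and 5 late-lost regions (4.85%), against 10.7% of all regions. Both were below in 27 late-gained (25.2%) and 24 late-lost regions (23.3%), against 20.3%. List length moved with the percentile here too, and its part in these counts was not tested.

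The limit of the rule was sharp, while the values around it were not. Among late-gained regions, that near Wbp1l held rank 50039 in the list of 48 h replicate 2 and those near Dagla and Lpar3 ranks 49926 in 72 h replicate 2 and 49910 in 96 h replicate 1. Just outside, the region near Pygb held rank 50004 in 96 h replicate 1, and those near Mpdz and Kcnh2 ranks 49936 in 0 h replicate 1 and 49909 in 48 h replicate 2. Among late-lost regions, the nearest inside lay near Bbs9 (rank 49983 in 0 h replicate 2), Slc11a1 (50018 in 96 h replicate 1) and Ppp1r13l (49969 in 48 h replicate 2). The nearest outside lay near Tbx3 (50006 in 48 h replicate 2), Ankrd44 (49968 in 96 h replicate 2) and Col3a1 (49962 in 96 h replicate 2). A further 1007 regions failed the late-gained rule, and 815 the late-lost rule, in a single library.

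Of the 10 late-gained regions with the highest percentile in their weakest late library, those nearest to Jag1 and Dtwd2 had the highest late means (11.6 and 11.5). Jag1 encodes a Notch ligand that acts in bile duct development. The region lies at chr2:137165529-137166193 in intergenic DNA, 48885 bp from the nearest Jag1 transcription start site. Its fold enrichment was 6.55 and 4.22 (0 h), 3.20 and 5.22 (48 h), 12.3 and 9.04 (72 h), and 13.0 and 11.8 (96 h). The late libraries averaged 11.6 ± 1.75 and the early ones 4.80 ± 1.43 (SD over the 4 libraries of both time points on a side, n = 4 each), and the sides did not overlap.

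Other regions of this group lay within genes. The intronic Gbe1 region (chr16:70438954-70439771) lies in the gene of the glycogen branching enzyme. It had values of 5.41 and none (0 h), 2.85 and 4.32 (48 h), 10.0 and 7.51 (72 h), and 10.4 and 9.94 (96 h). Its late values were all above the early ones, and the full list of 0 h replicate 2 held no interval there. At the Golga7b promoter (chr19:42255574-42256388) the values were 6.26 and 4.64 (0 h), 3.91 and 4.47 (48 h), 10.0 and 9.78 (72 h), and 11.1 and 7.77 (96 h). These also did not overlap, with means of 9.67 ± 1.40 late and 4.82 ± 1.01 early (SD, n = 4 each).

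An intergenic region 11637 bp from the start of Nkx2-3, a homeobox transcription factor gene, lies at chr19:43623962-43624285 and carried the CTCF match shown above. Its fold enrichment was 3.41 and 5.91 (0 h), 4.62 and 5.22 (48 h), 10.0 and 9.94 (72 h), and 9.26 and 7.77 (96 h). The late values were again all higher, at 9.25 ± 1.04 against 4.79 ± 1.06 (SD, n = 4 each). A region in an exon of Kif5a, a kinesin gene, at chr10:127226552-127226887 averaged 9.31 ± 1.41 late and 4.77 ± 0.425 early without overlap (SD, n = 4 each). The nearest protein-coding start site there is that of Pip4k2c.

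By this percentile the strongest late-gained region lay 89269 bp from the start site of Atp8b1, which encodes a canalicular phospholipid transporter, at chr18:64750536-64751020. Its fold enrichment was 5.12 and 2.44 (0 h), none and 4.84 (48 h), 10.2 and 11.5 (72 h), and 9.76 and 9.44 (96 h). The list of 48 h replicate 1 held no interval there, and the late values were all above the early ones. The same chromosome held 3 others of the 10, nearest to Dtwd2, Eif3j2 and March3, and the remaining one was nearest to D1Pas1. In all 10 the late values did not overlap the early ones.

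**Figure D2:**
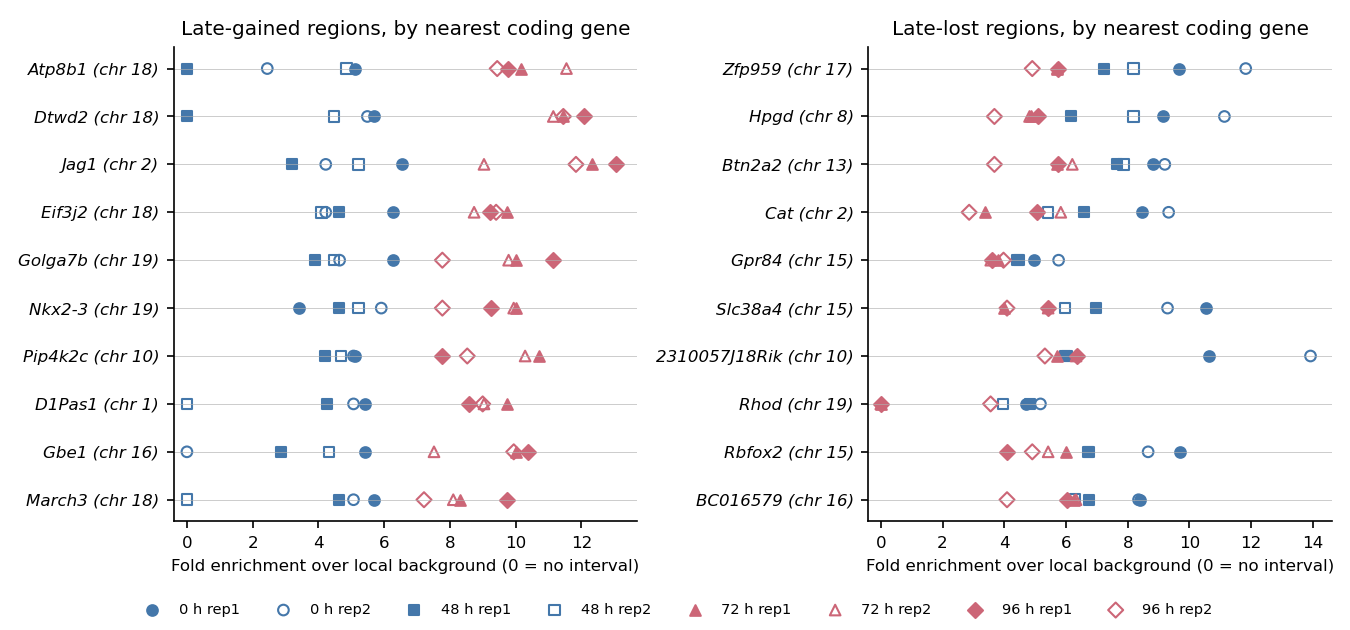
Fold enrichment over local background in each of the 8 libraries (x axis) for the 10 late-gained and 10 late-lost regions with the highest percentile in the weakest of their 4 lists, named by nearest protein-coding gene (y axis). Blue symbols are 0 and 48 h and red symbols 72 and 96 h, filled for replicate 1 and open for replicate 2, and a symbol at 0 means no interval in that list. All late-gained regions separate by colour, whereas blue and red symbols overlap in several late-lost regions, such as the one near 2310057J18Rik.

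The strongest late-lost region, at chr17:55903621-55904068 and nearest to the zinc finger gene Zfp959, was the one with the HNF1 match. Its fold enrichment was 9.68 and 11.8 (0 h), 7.24 and 8.18 (48 h), 5.72 and 5.72 (72 h), and 5.73 and 4.91 (96 h). The sides did not overlap (9.23 ± 2.0 early, 5.52 ± 0.409 late, SD, n = 4 each), whereas the order of 0 and 48 h changed with the scale, since the percentiles were 73.5 and 78.5 (0 h) and 78.4 and 81.6 (48 h). The region at chr8:56287348-56288081 lies 6504 bp from the start of Hpgd, which encodes the enzyme that inactivates prostaglandins. There the values were 9.14 and 11.1 (0 h), 6.15 and 8.18 (48 h), 4.87 and 4.82 (72 h), and 5.09 and 3.68 (96 h), again higher in every early than in every late library.

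Other strong late-lost regions were nearest to Cat and Slc38a4. A region 26349 bp from the start of Cat, the catalase gene, at chr2:103511509-103512354 had values of 8.47 and 9.33 (0 h), 6.59 and 5.42 (48 h), 3.39 and 5.83 (72 h), and 5.06 and 2.86 (96 h). Here the value of 72 h replicate 2 exceeded that of 48 h replicate 2. The region 139326 bp from the start of Slc38a4, an amino acid transporter gene, at chr15:96880059-96880625 went from 10.5 and 9.29 (0 h) through 6.96 and 5.96 (48 h) to 4.01 and 5.42 (72 h) and 5.41 and 4.09 (96 h). At this region the sides did not overlap.

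A short region in an intron of the noncoding gene A930001C03Rik, nearest to Rhod, was 1 of 2 late-lost regions with an interval in a single full late list. It lies at chr19:4442518-4442760 and had values of 4.71 and 5.17 (0 h) and 4.83 and 3.96 (48 h). At 72 h neither list held an interval, and at 96 h replicate 1 held none and replicate 2 gave 3.56. A pair of late-lost regions contained tRNA genes. One, at chr13:23505922-23506982, contained a tRNA-Trp gene at chr13:23506519-23506590 and had values of 8.81 and 9.20 (0 h), 7.66 and 7.85 (48 h), 5.72 and 6.20 (72 h), and 5.73 and 3.68 (96 h). The other contained a tRNA-Ser gene at chr11:69037477-69037558 near Aurkb. A tRNA gene was present in 0 late-gained, 2 late-lost (1.94%) and 0.256% of all regions, and this feature was looked up after the values had been seen.

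Most switching regions lay away from promoters. A transcription start site was within 1 kb of 13 late-gained (12.1%) and 11 late-lost regions (10.7%), against 24.0% of all regions and 13.5% of the regions that were not present in all 8 libraries. Introns held 45 late-gained (42.1%) and 48 late-lost regions (46.6%), against 42.2% of all regions and 48.7% of those not in all 8 libraries. Intergenic DNA held 43 (40.2%) and 43 (41.7%), against 29.8% and 33.2%. Coding exons held 1 region of each set (0.935% and 0.971%), against 1.71% and 1.88%. Other exons held 5 late-gained (4.67%) and 0 late-lost regions, against 2.32% and 2.64%. The late-lost promoter share rested in part on 1 library and on the intervals used. It was 18.7% of 209 regions without 96 h replicate 2 and 19.4% of 103 with 200 bp around each summit. With 25000 intervals per list it was 26.4% of 53 regions. The 24.0% of all regions belongs to the main setting, and the corresponding share is not given for these alternatives.

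The sets differed in how far they lay from genes and from constant peaks. The median distance to the nearest protein-coding start site was 33275 bp for the late-gained and 18526 bp for the late-lost regions. It was 17314 bp for all regions and 21840 bp for those not present in all 8 libraries. More than 50 kb separated 40 late-gained (37.4%) and 23 late-lost regions (22.3%) from such a site. The shares were 26.1% of all regions and 29.4% of those not in all 8. A region present in all 8 libraries lay within 5 kb of 15 late-gained (14.0%) and 27 late-lost regions (26.2%). The shares were 20.6% of all regions and 23.4% of those not in all 8. The late-gained regions were therefore the more isolated set, a difference described here without a test. Their median width was 526 bp, against 628 bp for the late-lost regions. It was 636 bp for all regions and 482 bp for those not present in all 8 libraries. The median GC content of the windows was 48.5% (late-gained), 47.5% (late-lost), 51% (all) and 49% (not in all 8).

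**Figure D3:**
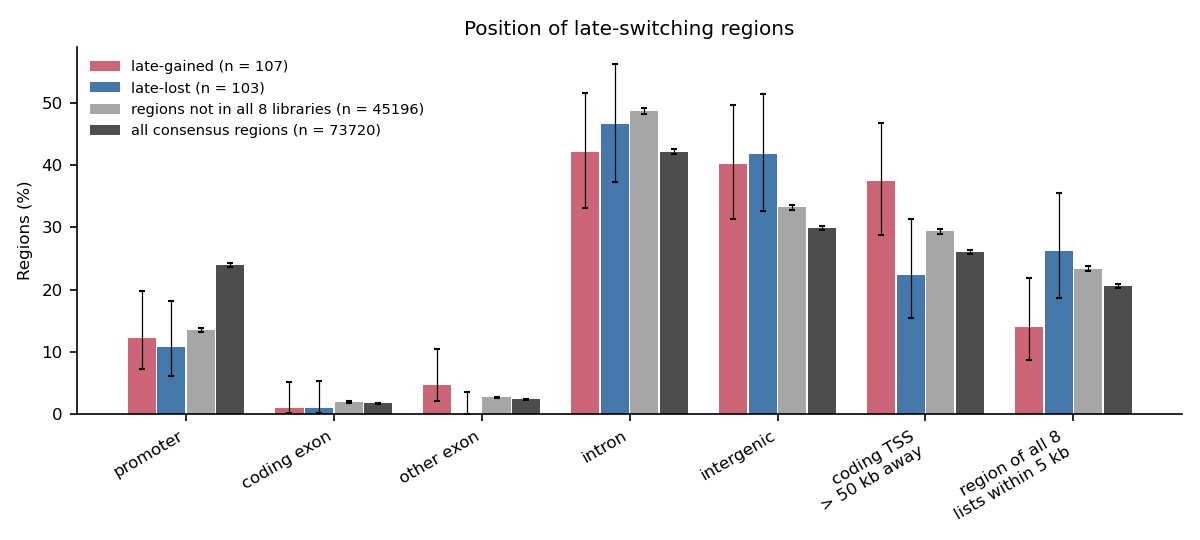
Share of regions (y axis, %) in each class of position for the late-gained (red), late-lost (blue), variable (light grey) and all regions (dark grey), with 95% Wilson intervals that cover counting error only. The promoter shares of the switching sets are 12.1% and 10.7%, against 24.0% of all regions and 13.5% of the variable regions (those not in all 8 libraries). The late-gained set has the largest share more than 50 kb from a coding start site (37.4%).

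At the promoters that did switch, the genes were of mixed function. The 13 late-gained promoter regions included those of Golga7b, Tmem132a, Slc1a3, which encodes a glutamate transporter, Nmnat2, an enzyme of NAD synthesis, Zswim2, Tmprss5, Bpifb4 and Mamdc2. In the others the start site belonged to Gm3809, Gm25611, Gm48888, AI646519 or the microRNA gene Mir6897. The 11 late-lost ones included those of Sult1d1, a sulfotransferase, Slc6a8, the creatine transporter, Prkd2, a protein kinase, Rps6ka6, Sbf2, Ldb3, Lysmd1, Leng9 and Ppp1r13l, as well as those of the small RNA genes Rnu3b2 and Gm24185. The Sult1d1 promoter region (chr5:87568890-87569194) had values of 7.90 and 9.43 (0 h), 4.88 and 5.56 (48 h), 6.07 and 4.51 (72 h), and 4.43 and 3.74 (96 h). Its 72 h replicate 1 value exceeded both 48 h values, so that its sides overlapped.

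Motif matches were counted on both strands of the 200 bp windows. The CTCF motif matched in 13 late-gained (12.1%) and 9 late-lost windows (8.74%), against 6.95% of all regions. With up to 1 mismatch, a count added after the data had been seen, these became 31 (29.0%), 21 (20.4%) and 20.8%. Among the kept intervals of the single libraries the exact motif matched in 6.67 to 8.06% early and 7.13 to 7.55% late. The late-gained CTCF windows included those nearest to Nkx2-3, Mcoln2, Kitl, Prlhr, Mark1 and Cldn10, and the late-lost ones those nearest to Irf2bpl, Tesk2, Rdx and E2f8. The late-gained share was 7.46% with 25000 intervals per list and 3.61% with all intervals. The late-lost share was 5.37% without 48 h replicate 2, 6.56% without 48 h replicate 1, 6.70% without 96 h replicate 2, 5.66% with 25000 intervals and 2.27% with all intervals. The 6.95% of all regions belongs to the main setting and is not given for these alternatives. Whether either share stayed above its background there was not tested.

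Motifs of hepatocyte factors matched in both sets. FOXA (TATTTAC or TGTTTAC) matched 9 late-gained (8.41%) and 6 late-lost windows (5.83%), against 7.82% of all regions. The late-lost share was higher when any second replicate was left out (8.96% for 0 h, 9.76% for 48 h, 9.36% for 72 h and 10.1% for 96 h) and with 25000 intervals (17.0%). The late-gained share was lower when either 48 h library (6.88% and 6.53%), the first 72 h library (7.43%) or either 96 h library (6.97% and 7.19%) was left out, and with all intervals (6.68%). For these settings the share of all regions is not given, so 7.82% is no background for them. In 400 bp windows FOXA matched 12.1% of late-gained and 9.71% of late-lost regions, both below the 13.3% of all regions. The late-gained share was thus above its background in the main setting and below it in 400 bp windows. HNF4 (CAAAG, then G or T, C or T, and CA) matched 2 (1.87%) and 5 (4.85%), against 4.48%. The late-gained share rose to 4.37% without 0 h replicate 1, to 3.96% without 72 h replicate 1 or 96 h replicate 2, to 3.30% without 72 h replicate 2, to 3.29% without 0 h replicate 2 and to 3.28% without 96 h replicate 1. The late-lost share ranged from 3.77 to 7.0% over the alternatives, whereas the 4.48% of all regions belongs to the main setting only. In 400 bp windows the late-lost HNF4 share was 5.83%, below the 6.16% of all regions. C/EBP (TT, then A or G, C or T, and GCAA) matched 4 (3.74%) and 7 (6.80%), against 3.38%. ONECUT (A or G, then TC, A or G, and ATA) matched 5 (4.67%) and 9 (8.74%), against 6.67%. HNF1 matched 1 window of each set. In each of HNF4, C/EBP and ONECUT the late-lost count was the higher one, but the counts were below 10.

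Motifs of inducible factors were counted in the same windows. AP-1 (TGAGTCA or TGACTCA) matched 4 late-gained (3.74%) and 4 late-lost windows (3.88%), against 5.51% of all regions. The late-lost share was 6.47% without 0 h replicate 2, 5.74% without 96 h replicate 2, 9.43% with 25000 intervals and 6.82% with all intervals. The late-gained share was 5.97% with 25000 intervals. The share of all regions is not given for these settings, so 5.51% is no background for them. In 400 bp windows 3.74% of late-gained and 5.83% of late-lost regions matched, both below the 8.74% of all regions. STAT (TTC, then C or T, any base, A or G, and GAA) matched 3 (2.80%) and 6 (5.83%), against 2.87%, and the NF-kB motif 2 (1.87%) and 5 (4.85%), against 1.99%. TEAD (ACATTCC or GCATTCC) matched 4 of each set (3.74% and 3.88%), against 5.04%. The GC-rich SP/KLF motif GGGCGGG, frequent at CpG promoters, matched 0 late-gained and 5 late-lost windows (4.85%), against 10.4% of all and 4.67% of the variable regions. The E-box CACCTG matched 16 windows of each set (15.0% and 15.5%), against 16.5%. The other 13 motifs searched each matched 0 to 3 late-gained and 0 to 4 late-lost windows. No motif of the list matched 53 late-gained (49.5%) and 39 late-lost windows (37.9%), against 38.8% of all regions. A match is a description of the sequence, not evidence of binding.

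**Figure D4:**
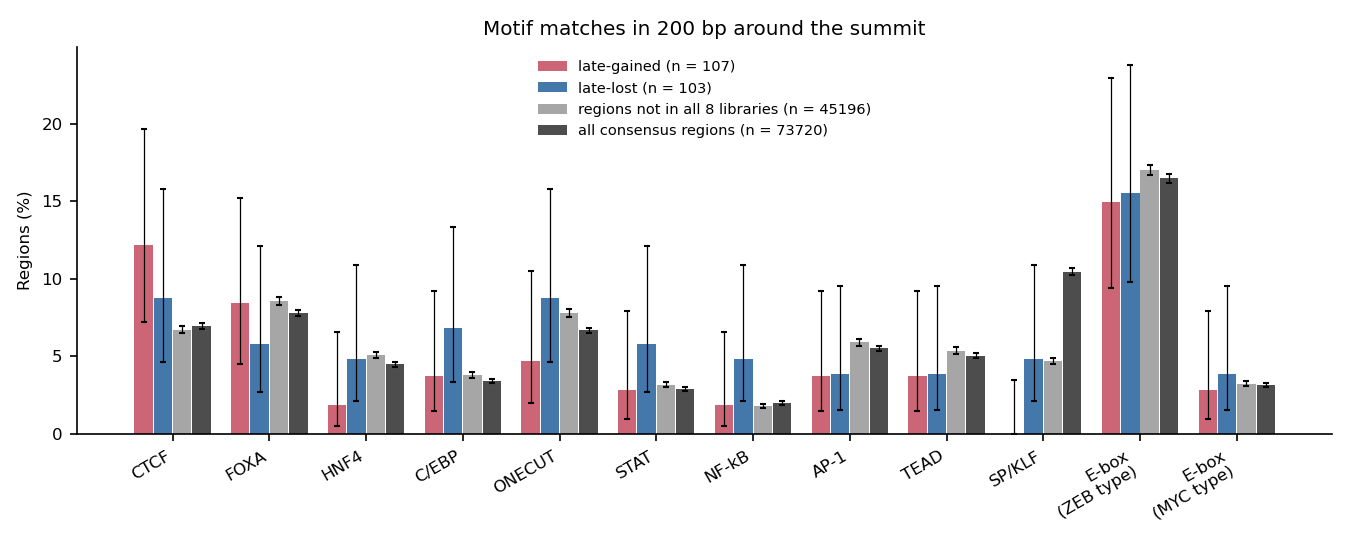
Share of regions (y axis, %) whose 200 bp window holds at least 1 match to each of 12 motifs (x axis), in the same 4 sets and colours as the plot of positions, with 95% Wilson intervals that cover counting error only. CTCF matched 12.1% of the late-gained regions against 6.95% of all regions. The late-gained share was 7.46% with 25000 intervals per list and 3.61% with all intervals, where the share of all regions is not given. The Wilson intervals of the 2 switching sets overlap for every motif plotted.

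Genes of regeneration, hepatocyte identity and signalling were followed with 11 lists of 480 genes. A listed gene was the nearest protein-coding gene of 5 late-gained (4.67%) and 8 late-lost regions (7.77%), against 5.20% of all regions. Within 50 kb of its start site this fell to 1 late-gained (0.935%) and 7 late-lost regions (6.80%), against 3.54%. The late-gained listed genes were thus mostly remote, and the late-lost ones mostly near.

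On the gained side, the list of fetal, progenitor and biliary genes contributed 3 regions (2.80%, against 0.433% of all regions). These were the region near Jag1 and those nearest to Prox1 and Zeb2. Prox1 encodes a homeobox factor of hepatoblast and hepatocyte identity. Its region at chr1:190068709-190069203, 100196 bp away, had values of 5.76 and 4.64 (0 h), 3.91 and 3.39 (48 h), 6.41 and 7.54 (72 h), and 7.47 and 7.09 (96 h). Every late value was above every early one (7.13 ± 0.519 against 4.43 ± 1.03, SD, n = 4 each). Zeb2, which encodes a repressor active in the epithelial-mesenchymal transition, was 455343 bp from its region, where the values were 5.69 and 5.91 (0 h), none and 4.47 (48 h), 9.73 and 9.64 (72 h), and 7.0 and 9.0 (96 h). These too did not overlap. The other listed genes were Sqle, which encodes squalene epoxidase of sterol synthesis, and Fzd8, a Wnt receptor gene, the latter 626192 bp away. The Sqle region lay 51242 bp from its start, with values of 4.87 and 4.12 (0 h), none and 3.65 (48 h), 5.49 and 6.77 (72 h), and 7.65 and 6.57 (96 h).

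On the lost side, 2 regions (1.94%, against 0.498% of all regions) were nearest to genes of hepatocyte metabolism and plasma proteins. The region at chr12:8089557-8090669 lies in an intron of the noncoding gene Gm33037, 111909 bp from the start of Apob, which encodes the main protein of very low density lipoproteins. It had values of 10.9 and 7.66 (0 h), 5.54 and 6.71 (48 h), 5.75 and 5.72 (72 h), and 6.68 and 4.09 (96 h). The value of 48 h replicate 1 lay within the late range. The intronic region of Adh1, an alcohol dehydrogenase gene, had values of 6.33 and 6.90 (0 h), 4.77 and 4.69 (48 h), 4.60 and 5.43 (72 h), and 4.79 and 4.15 (96 h), and both 48 h values lay within the late range.

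The list of immediate early, cytokine and acute phase genes gave 2 more (1.94%, against 0.566% of all regions). The region 11373 bp from Nfkbia, which encodes the NF-kB inhibitor IkB-alpha, lies at chr12:55480573-55481274. Its values were 6.38 and 6.14 (0 h), 5.49 and 5.56 (48 h), 4.54 and 3.95 (72 h), and 3.15 and 3.99 (96 h). All early values exceeded all late ones (5.89 ± 0.435 against 3.91 ± 0.571, SD, n = 4 each). Il1r1, the gene of the signalling receptor for interleukin-1, was nearest to a region with values of 4.11 and 7.61 (0 h), 3.87 and 5.11 (48 h), 4.60 and 3.57 (72 h), and 3.65 and 3.99 (96 h), which overlapped between the sides. A second late-lost region stood 66324 bp from it in an intron of Il1r2, which encodes the decoy receptor of the same cytokine, and was named after its values had been seen. There the values were 7.97 and 8.02 (0 h) and 5.03 and 6.81 (48 h), and only 72 h replicate 2 of the late lists held an interval (3.31).

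The cell cycle list gave E2f8, a repressor of the E2F family, and Aurkb, a mitotic kinase gene (2 regions, 1.94%, against 0.434% of all regions). The E2f8 region, in an intron of a noncoding gene and with a CTCF match, had values of 3.38 and 4.31 (0 h), 4.63 and 6.81 (48 h), and 3.08 and 3.66 (72 h). No interval was listed there at 96 h, and the sides overlapped, since 0 h replicate 1 was below 72 h replicate 2. The Aurkb region had values of 3.74 and 3.49 (0 h), 3.35 and 3.26 (48 h), 3.20 and 3.24 (72 h), and 2.79 and 3.38 (96 h), and the sides overlapped. The remaining listed genes were Onecut2, a hepatocyte transcription factor gene, and Id2, an inhibitor of helix-loop-helix factors. The Id2 region had values of 4.31 and 4.09 (0 h), 4.79 and 5.06 (48 h), 3.43 and 2.48 (72 h), and 3.29 and 3.96 (96 h), with all early values above the late ones. No region of either set was nearest to a gene of the circadian clock, of cytoskeleton, adhesion and matrix, or of the 40 markers of other liver cells. These lists are nearest to 0.281%, 0.544% and 0.149% of all regions, so that a count of 0 in sets of 107 and 103 regions is near the background.

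The regions were scattered over the genome, with 208 nearest protein-coding genes for 210 regions. Only 3 pairs of the same direction lay within 100 kb of each other: late-gained near Mcoln2 and Lpar3 (75789 bp apart), late-gained in March3 (17033 bp) and late-lost at Il1r2 and Il1r1. At Gabrr1, a late-gained and a late-lost region lay 22927 bp apart. The gained one had values of 5.98 and 5.49 (0 h), 4.62 and 5.22 (48 h), 9.44 and 9.94 (72 h), and 7.0 and 6.13 (96 h). The lost one went from 9.11 and 11.4 (0 h) and 5.19 and 5.64 (48 h) to 5.85 and 2.55 (72 h) and 3.94 and 4.83 (96 h). Its 72 h replicate 1 value exceeded both 48 h values, so that the sides of the lost region overlapped, whereas those of the gained one did not. The gained sides nearly met, at 5.98 (0 h replicate 1) and 6.13 (96 h replicate 2), which lie less than 1 step of fold enrichment apart.

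Chromosome 19 held 12 late-gained regions (11.2%), against 2.81% of all regions, and 1 late-lost region. They were nearest to Golga7b, Nkx2-3, Sorcs3, Add3, Tmem132a, 4430402I18Rik, Dagla, Prlhr, Wbp1l, Htr7, Jak2 and Mamdc2. Jak2 encodes the kinase of growth hormone and cytokine receptors, and its intronic region had values of 6.26 and 5.91 (0 h), 4.97 and none (48 h), 6.87 and 6.93 (72 h), and 7.32 and 9.0 (96 h). The share of all kept intervals on chromosome 19 was 2.48 and 2.76% (0 h), 2.22 and 2.54% (48 h), 2.94 and 2.66% (72 h), and 2.88 and 2.58% (96 h). These shares overlapped between the sides, and the lowest were those of 48 h replicate 1 and 0 h replicate 1. Their part in the result was not tested. The late-lost regions were most numerous on chromosomes 5 (12 regions, 11.7%, against 6.31% of all regions) and 7 (11 regions, 10.7%, against 5.83%).

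**Figure D5:**
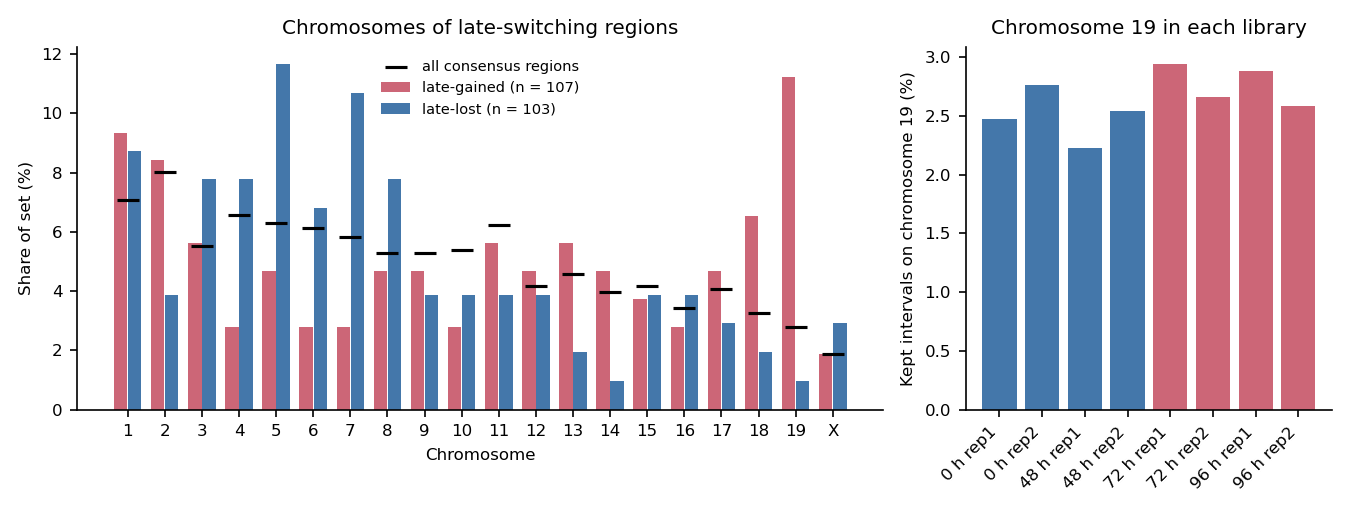
Left, share of the late-gained (red bars) and late-lost regions (blue bars) on each chromosome (y axis, %), with black lines for all 73720 regions. Right, share of each library's 50000 kept intervals on chromosome 19 (y axis, %). Chromosome 19 has 11.2% of the late-gained regions, while its share of a library's intervals varies from 2.22 to 2.94%.

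The libraries differed in strength, and depth could not be read from the lists, which hold no read counts. The −log10 p of the last kept interval ranged from 8.05 to 15.2 early and 8.29 to 14.8 late, and the median fold enrichment of kept intervals from 6.70 to 9.35 early and 7.97 to 9.06 late. The early and late ranges of both overlapped. The names of 7 lists carry the same flow cell and lane, and that of 72 h replicate 2 another lane without a flow cell. Promoters of 10 hepatocyte markers were among the kept intervals in 3 to 9 cases early and 4 to 6 late. The early lists were not alike. The Tat promoter held ranks 34122 and 34277 at 0 h and had no interval in either 48 h list. Those of Apoa1, Hnf4a and Asgr1 were kept in all 4 early lists. Promoters of 5 Kupffer cell markers were kept in 0 cases on both sides and those of 5 endothelial markers in 0 to 1. Those of 5 stellate cell markers were kept in 2 cases, and of 5 cholangiocyte markers in 1 to 3 early and 2 late. None of 5 lymphocyte markers had an interval in any list.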

How the data were processed

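The data were 8 bulk ATAC-Seq peak lists of mouse hepatocytes, 2 at each of 0, 48, 72 and 96 h. Per the study's methods, the authors trimmed reads, mapped them to mm10 with Bowtie2, removed PCR duplicates and called peaks per library with MACS2 in the ENCODE pipeline. Versions are not given in the sources used here. The names of the lists describe Tn5-shifted tags, a p threshold of 0.01, a limit on peak number and a blacklist filter. The deposited lists give the authors' fold enrichment (a ratio to local background), −log10 p and −log10 q, a display score and a summit position. The authors' −log10 p ranked intervals, the deposited −log10 q served in 1 alternative, and the deposited score entered no comparison. The lists hold no counts, so depth is unknown and the study's test on reads could not be run.

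Lines sharing an interval were collapsed to the highest −log10 p, on 20 chromosomes (Y was left out). A percentile is the share of a list at or below an interval. Sequence came from RefSeq GRCm38.p6, and genes from GENCODE M21 basic (75487 start sites, 41157 of them protein-coding), while tRNA genes came from the RefSeq annotation. Windows in untranslated regions, or in loci not reported here, were not printed. Named regions were the 10 per direction with the highest percentile in the weakest of their 4 lists, those nearest to a listed gene and the 3 on each side of the limit. The members, motifs and gene lists were chosen with earlier results of these data known. Genes outside these rules, among them Sult1d1, Gabrr1 and Jak2, were named with their values known. Of the 480 listed genes, 477 had a protein-coding start site. No test was run on members, because the lists chose them. Wilson 95% intervals cover counting error only. Alternatives were 25000 or all intervals, q under 0.05, 200 bp around summits, coverage of at least 50% of a region, absence from full lists, and each library left out. A mismatch in the CTCF motif and scaling of fold by the library median were added after the data had been seen. Scripts (Python 3.11.15, numpy 2.4.6, pandas 2.3.3, scipy 1.17.1, matplotlib 3.10.9) were tested on simulated data.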

Additional observations from a re-analysis of the deposited data

Results flagged for a closer look

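Among the values of the 4 late libraries, 96 h replicate 2 stood apart from the other 3 in 2 of 22 groups of values examined. The −log10 p of its last kept interval was 8.294, and its gap to the nearest late library was 0.874 of their range, above the 95% critical value of Dixon's rule for 4 values. The median GC content of its kept intervals was 52%, against the single value of 52.5% in the other late libraries, so that the gap was the whole range. All 8 libraries had either of these values, so this gap was a single step at the resolution of the measure and says nothing about its size. Chance flags about 1 in 20 groups. Without this library, 278 regions were late-gained and 209 late-lost.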

How the results depend on the processing

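The number of switching regions moved by over 1.5 times with most choices of which intervals are compared. With 25000 intervals per list, 67 regions were late-gained and 53 late-lost, and 2 and 0 of them were regions of the reported sets. With all deposited intervals the counts were 554 and 44, with q under 0.05 they were 500 and 37, and in both cases 0 regions were shared with the reported sets. Coverage of at least 50% of a region gave 173 late-gained regions (63 shared) and 89 late-lost (51 shared). It moved less with 200 bp around each summit, with 122 (105 shared) and 103 (80 shared). Absence from the full lists left 0 of each. Leaving out 1 library gave 202 to 278 late-gained and 167 to 244 late-lost regions, since fewer lists then had to meet the rule. The lowest came without 72 h replicate 1 in both directions, and the highest without 96 h replicate 2 (gained) and 48 h replicate 1 (lost). Without 72 h replicate 2, whose list name has another lane, they were 212 and 203. Of 122 recomputed shares of promoters, motifs and listed genes, 115 moved by less than their counting interval and 7 by more. The late-lost promoter share was 26.4% with 25000 intervals, 19.4% with summits and 18.7% without 96 h replicate 2, and the late-lost FOXA share was 17.0% with 25000 intervals (AP-1 gave 9.43% there, within its counting interval). With all intervals CTCF matched 3.61% of late-gained and 2.27% of late-lost regions, and the late-gained share of listed genes was 0.935% within 50 kb. No paired analysis was possible because the result comes from no test. The lists hold no read counts, so absence could not be told from low depth.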

Other observations

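Further late-lost regions are described for genes named after their values had been seen. Mup20 and Mup21, which encode major urinary proteins of the liver, were nearest to a region each, 83889 and 7246 bp away. The Mup20 region had a fold enrichment of 6.83 and 7.60 (0 h), 5.68 and 6.34 (48 h), 6.58 and 5.72 (72 h), and 5.68 and none (96 h), so that the sides overlapped. The Mup21 region had 6.83 and 13.5 (0 h), 4.97 and 7.83 (48 h), 5.15 and 4.22 (72 h), and none and 4.50 (96 h), and its sides overlapped at 48 h replicate 1 and 72 h replicate 1. An intronic region of Cd36, a fatty acid transporter gene, had 7.17 and 8.87 (0 h), 5.68 and 8.07 (48 h), 5.44 and 5.70 (72 h), and 6.36 and 4.50 (96 h) with overlapping sides, and it held a C/EBP match.

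On the gained side, a CTCF-matching region 155012 bp from Kitl, the gene of the KIT ligand, had 3.98 and 4.22 (0 h), none in either 48 h list, 8.01 and 7.53 (72 h), and 7.32 and 8.59 (96 h). A region in an intron of St5, nearest to the start site of Akip1, was the 1 late-gained region with an interval in a single early list: it had 4.62 in 48 h replicate 1, 7.44 and 6.93 (72 h), and 8.91 and 6.13 (96 h). Both were named after their values had been seen.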
